A study of Homo sapiens with 18 samples.

Results

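SLITRK5, CCDC184, MIR1915HG, PLAGL1 and CYS1 are 5 transcripts chosen by their measured levels, for rises above the solvent control in cells given PRT3789. They were grouped as belonging to no shared pathway. They are 5 of the 43236 gene symbols in the count table, and all 5 were among the 16291 symbols that passed the filter on low counts. Their differences between PRT3789 and DMSO chose them, so those differences are given as descriptions without a test. The set was named for rises that begin early and grow. That name held for SLITRK5 and CCDC184 between 6 and 48 h. It did not hold for MIR1915HG, whose ratio to DMSO was smaller at each later time. Nor did it hold for PLAGL1 and CYS1, which were near their DMSO levels at 6 h.

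Transcripts were counted in NCI-H1693, a single established line of human non-small cell lung cancer that the labels describe as deficient in SMARCA4. Cells received PRT3789, a degrader selective for SMARCA2, at 50 nM or the solvent DMSO alone, and pellets were taken after 6, 48 or 72 h. Each of the 6 groups (DMSO 6 h, PRT3789 6 h, DMSO 48 h, PRT3789 48 h, DMSO 72 h and PRT3789 72 h) had 3 libraries of stranded, poly(A)-selected RNA, and cells of every group carried the same SMARCA4 deficiency. The labels do not say that the 3 libraries came from separate cultures, so each p measures the spread between these libraries, which may be technical.

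SMARCA2 and SMARCA4 are the alternative ATPase motors of the SWI/SNF complexes, which move or evict nucleosomes and so change which promoters and enhancers are open. In a line without SMARCA4, the remaining complexes rely on SMARCA2. SLITRK5 encodes a membrane protein with leucine-rich repeats that is best known from neurons, where it acts at synapses and in the signalling of neurotrophin receptors. CCDC184 encodes a coiled-coil protein of little-studied function. MIR1915HG is a long non-coding RNA that hosts the microRNA gene MIR1915. PLAGL1, also called ZAC1, encodes a zinc finger transcription factor with anti-proliferative activity and is imprinted, being expressed mainly from the paternal copy. CYS1 encodes cystin 1, a lipid-anchored protein of the primary cilium that is altered in a mouse model of polycystic kidney disease.

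The 5 genes lie on 5 chromosomes in GRCh38.p14, so none of them neighbours another. SLITRK5 spans chr13:87671371-87679616 on the plus strand, and its 958-residue protein is encoded in 1 exon of the 2 in its canonical transcript. CCDC184 spans chr12:48183644-48185926 on the plus strand and consists of 1 exon that encodes 194 residues. MIR1915HG spans chr10:21492658-21497260 on the minus strand in RefSeq. PLAGL1 spans chr6:143940300-144064599 on the minus strand, with 27 RefSeq transcripts and a 463-residue protein. CYS1 spans chr2:10056473-10080411 on the minus strand, with 3 exons that encode 158 residues.

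The mature microRNAs of the MIR1915 hairpin are shown because the host transcript was measured here and they were not. In both GENCODE transcripts of MIR1915HG the hairpin lies within an intron, and poly(A) libraries do not measure mature microRNAs. The sequences are from RefSeq (GRCh38.p14, chromosome 10, minus strand), 5′ to 3′, with the seed (bases 2 to 8) in capitals. The 3p arm lies at chr10:21496576-21496595 and the 5p arm at chr10:21496609-21496630. The seeds of the arms differ.
hsa-miR-1915-3p: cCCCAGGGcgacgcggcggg
hsa-miR-1915-5p: aCCUUGCCuugcugcccgggcc

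The DNA just before the annotated starts of 3 members is shown because these genes moved at different times, and because a PLAGL1 start is shared with another gene. Each window holds the 250 bases upstream of a RefSeq start, written 5′ to 3′ on the strand of the gene. Capitals mark matches, on either strand, to 6 motifs: TEAD (GGAATG), AP-1 (TGANTCA), GC box (GGGCGG), CRE (TGACGTCA), E-box (CACGTG) and GLI (GACCACCCA). The SLITRK5 window is chr13:87671121-87671370 on the plus strand. The MIR1915HG window is chr10:21497261-21497510 on the minus strand. The PLAGL1 windows are chr6:144064600-144064849, before its outermost start, and chr6:144008260-144008509, before the start that it shares with the non-coding transcript HYMAI, both on the minus strand.
SLITRK5: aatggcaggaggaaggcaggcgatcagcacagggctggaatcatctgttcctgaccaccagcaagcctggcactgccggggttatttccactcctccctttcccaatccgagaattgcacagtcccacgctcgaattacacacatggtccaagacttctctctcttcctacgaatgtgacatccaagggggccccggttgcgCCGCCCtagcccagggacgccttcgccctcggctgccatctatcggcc
MIR1915HG: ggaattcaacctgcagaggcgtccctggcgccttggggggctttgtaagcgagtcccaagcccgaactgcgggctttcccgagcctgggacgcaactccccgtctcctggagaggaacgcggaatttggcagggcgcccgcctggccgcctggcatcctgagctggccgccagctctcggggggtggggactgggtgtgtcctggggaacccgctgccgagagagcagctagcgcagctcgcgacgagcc
PLAGL1, outermost start: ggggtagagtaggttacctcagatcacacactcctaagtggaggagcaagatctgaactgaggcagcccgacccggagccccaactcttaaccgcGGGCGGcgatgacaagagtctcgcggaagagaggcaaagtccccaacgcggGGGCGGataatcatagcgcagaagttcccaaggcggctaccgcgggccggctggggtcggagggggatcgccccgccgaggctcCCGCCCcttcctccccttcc
PLAGL1, start shared with HYMAI: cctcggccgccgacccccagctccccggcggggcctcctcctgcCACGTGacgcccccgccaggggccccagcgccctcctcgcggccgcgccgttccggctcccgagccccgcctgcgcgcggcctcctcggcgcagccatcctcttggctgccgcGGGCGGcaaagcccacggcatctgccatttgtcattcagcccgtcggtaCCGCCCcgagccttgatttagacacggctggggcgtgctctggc

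RefSeq lists further starts, 3 in all for SLITRK5 and 5 for PLAGL1, whose windows are not printed. The 4 printed windows were richer in CpG dinucleotides than the median promoter window, at 13 in SLITRK5, 21 in MIR1915HG, 21 at the outermost PLAGL1 start and 32 at the shared start, against a median of 11 over 34788 windows. Their GC content was 59.2%, 68.8%, 64.8% and 75.6% in the same order, against a median of 58.0%. The SLITRK5 window held 1 GC box, the outermost PLAGL1 window held 3, and the shared PLAGL1 window held 2 GC boxes and 1 E-box. No printed window held the TEAD, AP-1, CRE or GLI letters, and the MIR1915HG window held none of the 6 motifs. Of the windows not printed, those of SLITRK5 held 3 and 4 GC boxes, and PLAGL1 starts 2, 4 and 5 had only 1, 3 and 1 CpG and 39.6%, 50.8% and 33.6% GC, with 1 AP-1 match at start 5. Of all windows, 42.6% held a GC box, 6.31% an E-box, 11.9% the TEAD letters, 6.59% the AP-1 letters, 1.64% the CRE letters and 0.201% the GLI letters. These matches describe the sequence only.

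Levels are given in CPM, the counts of a gene per 1e+06 counts of a library total scaled with TMM factors. Library totals ran from 23154484 to 31094797 counts. Spread within a group was widest at 6 h: taken over 11059 genes, the median SD on the log2 CPM scale came to 0.167 for DMSO and 0.149 for PRT3789, and at 72 h to 0.0722 and 0.0669. All 8 epithelial markers were present at a mean of at least 1 CPM in every group. The 9 blood markers summed to 5.27 to 16.9 CPM over all libraries, mostly CD68, with HBB at 0 in every library. The 8 fibroblast markers summed to 116 to 163 CPM, mostly LUM, and moved both ways at 48 h. COL3A1 went from a mean of 1.92 CPM in DMSO to 13.8 CPM in PRT3789, and FAP from 10.1 to 16.7 CPM. LUM went the other way, from 95.1 to 65.1 CPM. COL1A1 and PDGFRA had higher means in PRT3789 too, and COL1A2, DCN and PDGFRB lower ones. The summed epithelial markers were lower in PRT3789 at 48 h, at 5110 to 5320 CPM against 11100 to 11800 CPM in DMSO, and at 72 h, at 4510 to 4730 CPM against 9900 to 10700 CPM. KRT8 (5150 to 2100 CPM at 48 h) and KRT18 (4000 to 1570 CPM) made up most of that difference. CLDN4 went from 639 to 255 CPM, CDH1 from 285 to 177 CPM and CLDN7 from 196 to 150 CPM at 48 h. EPCAM went from 713 to 580 CPM, KRT19 from 373 to 326 CPM and KRT7 from 25.3 to 29.8 CPM. CLDN4 was lower at 6 h too, at 260 CPM in PRT3789 against 545 CPM in DMSO. The part of these marker changes in the results below was not tested. The transcript of SMARCA2, whose protein is the target, had a log2 fold change of 0.04 ± 0.10 (SE) at 6 h, -0.19 ± 0.10 at 48 h and -0.44 ± 0.10 at 72 h (edgeR adjusted p = 0.896, 0.126 and 0.00108), which does not measure loss of the protein.

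SLITRK5 had the highest ratio of means of the 5 genes at 6 h. At 6 h its level was 3.77, 3.14 and 3.36 CPM in the DMSO libraries and 8.67, 9.51 and 6.93 CPM in the PRT3789 libraries. At 48 h it was 5.63, 4.50 and 4.92 CPM in DMSO and 27.5, 26.5 and 30.03 CPM in PRT3789. At 72 h it was 6.09, 5.34 and 5.82 CPM in DMSO and 27.7, 24.1 and 22.3 CPM in PRT3789. Every PRT3789 library lay above every DMSO library of any time, including those taken at 6 h. The means were 3.42 ± 0.322 against 8.37 ± 1.32 CPM at 6 h (SD, n = 3), 5.02 ± 0.569 against 28.0 ± 1.83 CPM at 48 h and 5.75 ± 0.377 against 24.7 ± 2.72 CPM at 72 h. The ratios of these means were 2.44, 5.58 and 4.29, and the fitted log2 fold changes (log2FC) were 1.29 ± 0.14 (SE), 2.48 ± 0.12 and 2.10 ± 0.12. Of all tested genes, 1.01%, 0.393% and 0.982% had a larger log2FC at 6, 48 and 72 h. The log2FC was thus higher at 48 h than at 6 h by 1.20 ± 0.18 and then lower at 72 h by 0.38 on the log2 scale, with an SE of 0.17. The ranges of the PRT3789 libraries at 48 and 72 h overlapped.

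CCDC184 was above DMSO from 6 h, as SLITRK5 was, and its own level in PRT3789 was highest at 72 h. Its level at 6 h was 5.89, 6.78 and 6.95 CPM in DMSO and 12.9, 11.3 and 12.2 CPM in PRT3789. Its level at 48 h was 9.02, 8.65 and 7.82 CPM in DMSO and 27.4, 29.2 and 29.4 CPM in PRT3789. Its level at 72 h was 8.48, 9.27 and 8.31 CPM in DMSO and 33.9, 32.0 and 34.3 CPM in PRT3789. Here too the lowest PRT3789 library, at 6 h, lay above the highest DMSO library, and the PRT3789 groups did not overlap one another. The log2FC was 0.89 ± 0.09 at 6 h, 1.75 ± 0.08 at 48 h and 1.94 ± 0.08 at 72 h, with ratios of means of 1.85, 3.37 and 3.84. The gain from 6 to 48 h was 0.86 ± 0.12, and the difference between 48 and 72 h was 0.19 ± 0.12. Over the 18 libraries the log2 CPM of CCDC184 and SLITRK5 had a Pearson r of 0.98, in points that share the same treatment and time groups.

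MIR1915HG was higher in PRT3789 at 6 h and higher in both arms later. Its level at 6 h was 1.99, 2.22 and 2.03 CPM in DMSO and 3.57, 3.68 and 4.25 CPM in PRT3789. Its level at 48 h was 7.53, 7.50 and 6.50 CPM in DMSO and 12.3, 11.0 and 11.5 CPM in PRT3789. Its level at 72 h was 7.71, 8.89 and 8.28 CPM in DMSO and 10.2, 10.6 and 10.5 CPM in PRT3789. PRT3789 and DMSO libraries lay apart at each time. In CPM the means were further apart at 48 h (7.18 in DMSO and 11.6 in PRT3789) than at 6 h (2.08 and 3.83), but the ratio narrowed. The log2FC was 0.88 ± 0.12, 0.69 ± 0.09 and 0.34 ± 0.09, and the ratio of means was 1.84, 1.62 and 1.26. The log2FC at 48 h minus that at 6 h was -0.18 ± 0.15, and that at 72 h minus 48 h was -0.36 ± 0.13. The share of tested genes with a larger log2FC was 2.01% at 6 h, 10.2% at 48 h and 23.8% at 72 h. The highest PRT3789 library of 6 h, at 4.25 CPM, lay below the lowest DMSO library of 48 h, at 6.50 CPM, whereas for SLITRK5 and CCDC184 every PRT3789 library of 6 h lay above every DMSO library of 48 h.

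**Figure D1:**
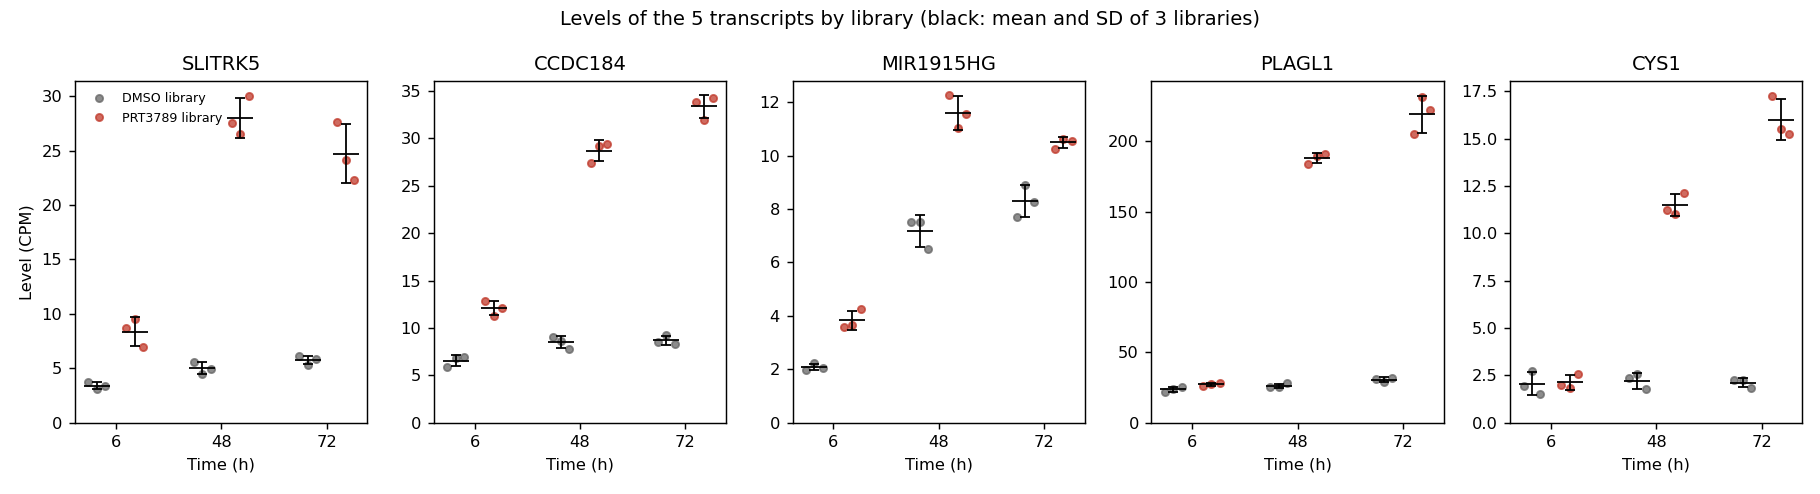
Level of each gene in CPM (vertical axis, starting at 0, with its own scale for each gene) in the 3 DMSO and 3 PRT3789 libraries of 6, 48 and 72 h (horizontal axis, times evenly spaced and not to scale). Coloured points are libraries, and black lines are means with SD. SLITRK5 and CCDC184 are above DMSO from 6 h, MIR1915HG climbs in both arms, and PLAGL1 and CYS1 stand apart from DMSO at 48 and 72 h.

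PLAGL1 had the highest ratio of means at 48 h. At 6 h its level was 21.7, 24.1 and 25.2 CPM in DMSO and 26.1, 27.6 and 28.1 CPM in PRT3789. At 48 h it was 25.5, 25.7 and 27.9 CPM in DMSO and 184, 189.5 and 191 CPM in PRT3789. At 72 h it was 31.015, 28.7 and 32.1 CPM in DMSO and 205, 231 and 222 CPM in PRT3789. The 6 h groups lay apart by a narrow margin, while the PRT3789 libraries of 48 and 72 h were far above every other library. The log2FC was 0.21 ± 0.07 at 6 h, 2.83 ± 0.07 at 48 h and 2.84 ± 0.07 at 72 h, with ratios of means of 1.15, 7.13 and 7.17. The gain between 6 and 48 h was 2.63 ± 0.10, and the difference between 48 and 72 h was 0.01 ± 0.10. Of all tested genes, 14.8% had a larger log2FC at 6 h, and 0.27% and 0.417% at 48 and 72 h.

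Gene-level counts cannot tell the PLAGL1 starts apart. HYMAI, the imprinted non-coding transcript that uses the start region printed above, was near the floor: 0 to 1 counts per library at 6 h, 2 to 4 counts in DMSO and 4 to 9 in PRT3789 at 48 h, and 0 to 3 counts in DMSO and 4 to 6 in PRT3789 at 72 h. HYMAI was not among the tested genes. HYMAI and LOC100131041 overlap PLAGL1, so reads of PLAGL1 and of these transcripts could be divided between them by the counting.

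CYS1 showed no separation at 6 h and the highest ratio of means of the 5 genes at 72 h. Its level at 6 h was 1.95, 2.72 and 1.51 CPM in DMSO and 1.99, 1.84 and 2.58 CPM in PRT3789. Its level at 48 h was 2.35, 2.59 and 1.76 CPM in DMSO and 11.2, 11.0 and 12.1 CPM in PRT3789. Its level at 72 h was 2.25, 2.24 and 1.86 CPM in DMSO and 17.2, 15.5 and 15.2 CPM in PRT3789. The ranges of the 3 DMSO groups and of PRT3789 at 6 h overlapped one another, and the later PRT3789 groups lay above them and apart from each other. The log2FC was 0.04 ± 0.20 at 6 h, 2.35 ± 0.17 at 48 h and 2.92 ± 0.17 at 72 h, with ratios of means of 1.04, 5.13 and 7.55. With counts of 32 to 74 per library at 6 h, the direction there turned when 1 library was left out: the log2FC was -0.12 without the third DMSO library and -0.10 without the third PRT3789 library. The gain from 6 to 48 h was 2.31 ± 0.26 and that from 48 to 72 h was 0.56 ± 0.24.

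The early and late genes can be set side by side by the share of the 72 h log2FC present at 6 h. It was 61.3% ± 7.37 (SE) for SLITRK5 and 45.8% ± 5.00 for CCDC184, but 7.26% ± 2.55 for PLAGL1 and 1.44% ± 6.73 for CYS1. MIR1915HG had 261% ± 80.5, since its 72 h log2FC was the smaller one. At 6 h, 4 of the 5 genes had all 3 PRT3789 libraries above all 3 DMSO libraries, as did 6.36% of tested genes. At 48 and 72 h all 5 did, as did 28.7% and 31.2% of tested genes. These counts restate the choice of the genes. Among the 864 tested genes (5.3%) that were called higher and at least 2-fold higher at 72 h, 73 (8.45%) were called higher at 6 h, where 1.28% of all tested genes were, and the median 6 h log2FC of the 864 was 0.17. Across the 18 libraries, PLAGL1 and CYS1 had a Pearson r of 0.98 with each other. SLITRK5 and CCDC184 had values nearly as high with PLAGL1 and CYS1, from 0.916 to 0.962, so r did not set early and late genes apart. MIR1915HG had 0.679 to 0.722 with the other 4 genes.

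**Figure D2:**
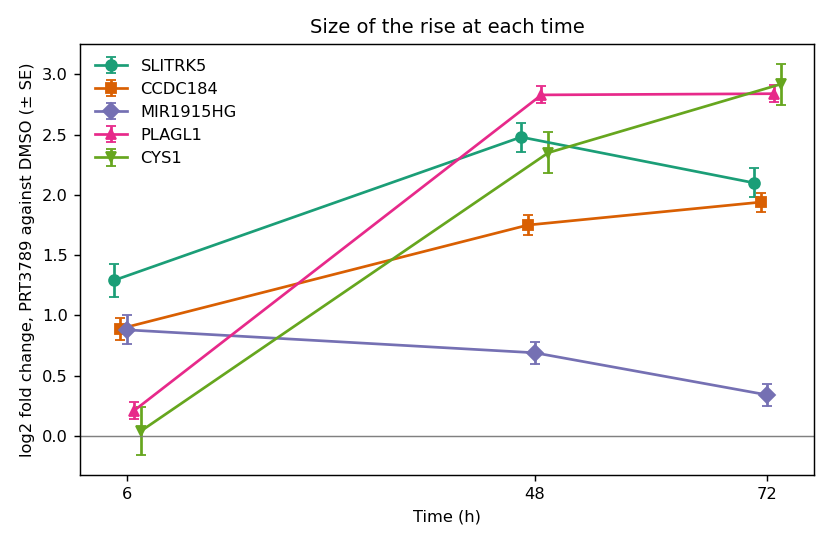
Fitted log2FC of PRT3789 against DMSO (vertical axis, with SE) at 6, 48 and 72 h (horizontal axis, to scale, with points shifted slightly so that they do not cover each other) for the 5 genes. Lines join the values of a gene. SLITRK5 reaches 2.48 at 48 h and 2.10 at 72 h, CCDC184 goes from 0.89 to 1.94, PLAGL1 and CYS1 start at 0.21 and 0.04, and MIR1915HG declines from 0.88 to 0.34.

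The genes also differed in how their levels changed in the solvent alone. The DMSO libraries are part of the contrasts that chose the genes, so a low DMSO level at 6 h favours both being chosen and a later increase, and these values too are given without a test. Between 6 and 48 h the DMSO level of MIR1915HG increased most, 3.45-fold (log2FC 1.78 ± 0.11). SLITRK5 was 1.47-fold higher at 48 h (log2FC 0.55 ± 0.14) and CCDC184 1.30-fold higher (0.38 ± 0.09). PLAGL1 had a log2FC of 0.16 ± 0.07 and CYS1 of 0.11 ± 0.20. In all but CYS1 the 3 libraries of 48 h lay above the 3 of 6 h, as in 19.4% of tested genes, and edgeR called 17.1% of all tested genes higher at 48 h.

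Between 48 and 72 h in DMSO the log2FC was 0.20 ± 0.13 for SLITRK5, 0.03 ± 0.09 for CCDC184, 0.21 ± 0.10 for MIR1915HG, 0.22 ± 0.07 for PLAGL1 and -0.08 ± 0.19 for CYS1. All 5 values were small beside the PRT3789 differences of SLITRK5, CCDC184, PLAGL1 and CYS1 at 72 h, and MIR1915HG came closest, with 0.34 ± 0.09 for PRT3789. Over all tested genes edgeR called 0.54% between these times.

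The 3 nearest tested genes on each side of each member, 30 in all, were compared in the same fit. Their count of calls stood at 0 at 6 h, where edgeR called 4.33% of all tested genes. At 48 h 9 neighbours were higher and 3 lower, where 21.2% of tested genes were called higher and 20.9% lower, and at 72 h 9 were higher and 2 lower, where 21.3% and 22% were. At 6 h 8 of the 30 had an unadjusted p under 0.05, and DESeq2 called 1, SKIDA1. The share of all tested genes with an unadjusted p under 0.05 is not given here, so the 8 cannot be set against it. The median log2FC of the 30 was -0.03, 0.20 and 0.18 at the 3 times.

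SKIDA1, which lies 16.2 kb from MIR1915HG, had the same log2FC as MIR1915HG at 6 h, 0.88 ± 0.27, but with a wide spread (edgeR adjusted p = 0.076). Its mean level was 1.32 ± 0.277 CPM in DMSO and 2.44 ± 0.616 CPM in PRT3789 at 6 h (SD, n = 3). It rose at 48 h (log2FC 1.53 ± 0.25, edgeR adjusted p = 7.76e-05) and at 72 h (1.18 ± 0.24, edgeR adjusted p = 0.000583). The log2FC of MIR1915HG was smaller at those times than at 6 h. MLLT10, the next gene, had a log2FC of 0.28 ± 0.13 at 6 h and -0.12 ± 0.13 at 72 h.

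KLF11, which encodes a Krüppel-like zinc finger factor and ends 1.64 kb from CYS1, rose with it at the later times. Its log2FC was 0.11 ± 0.12 at 6 h, 0.97 ± 0.12 at 48 h and 1.11 ± 0.12 at 72 h (edgeR adjusted p = 0.772, 6.08e-06 and 1.04e-06). Other genes around CYS1 moved both ways: GRHL1, a grainyhead factor of epithelia, rose with a log2FC of 0.46 ± 0.07 at 48 h, and RRM2, a ribonucleotide reductase subunit used in DNA synthesis, fell by 0.50 on the log2 scale (SE 0.06). LTV1, a ribosome assembly factor 76.5 kb from PLAGL1, rose by 0.76 ± 0.08 at 48 h and 0.78 ± 0.08 at 72 h. PHACTR2, 109 kb from PLAGL1, fell by 0.53 on the log2 scale at 48 h and by 0.84 at 72 h (SE 0.17 at both times). Its 48 h call ended, at up to 0.0969 (edgeR adjusted p), without the first DMSO or the second PRT3789 library of 48 h.

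LOC124900338, a non-coding gene on the minus strand that overlaps the start of SLITRK5, rose at 48 h with a log2FC of 3.88 ± 0.68 (edgeR adjusted p = 0.000175) and also rose at 72 h (0.000433), from very low levels. Its mean over all libraries was 0.225 CPM. SLITRK6, the neighbouring family member, had log2FC values of -0.23 ± 0.09, 0.19 ± 0.09 and 0.34 ± 0.09, and only the value at 72 h passed the edgeR test (adjusted p = 0.00545). Around CCDC184, 1 of the 6 neighbours was called at any time: ZNF641 rose by 0.27 ± 0.07 at 48 h (edgeR adjusted p = 0.00426).

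**Figure D3:**
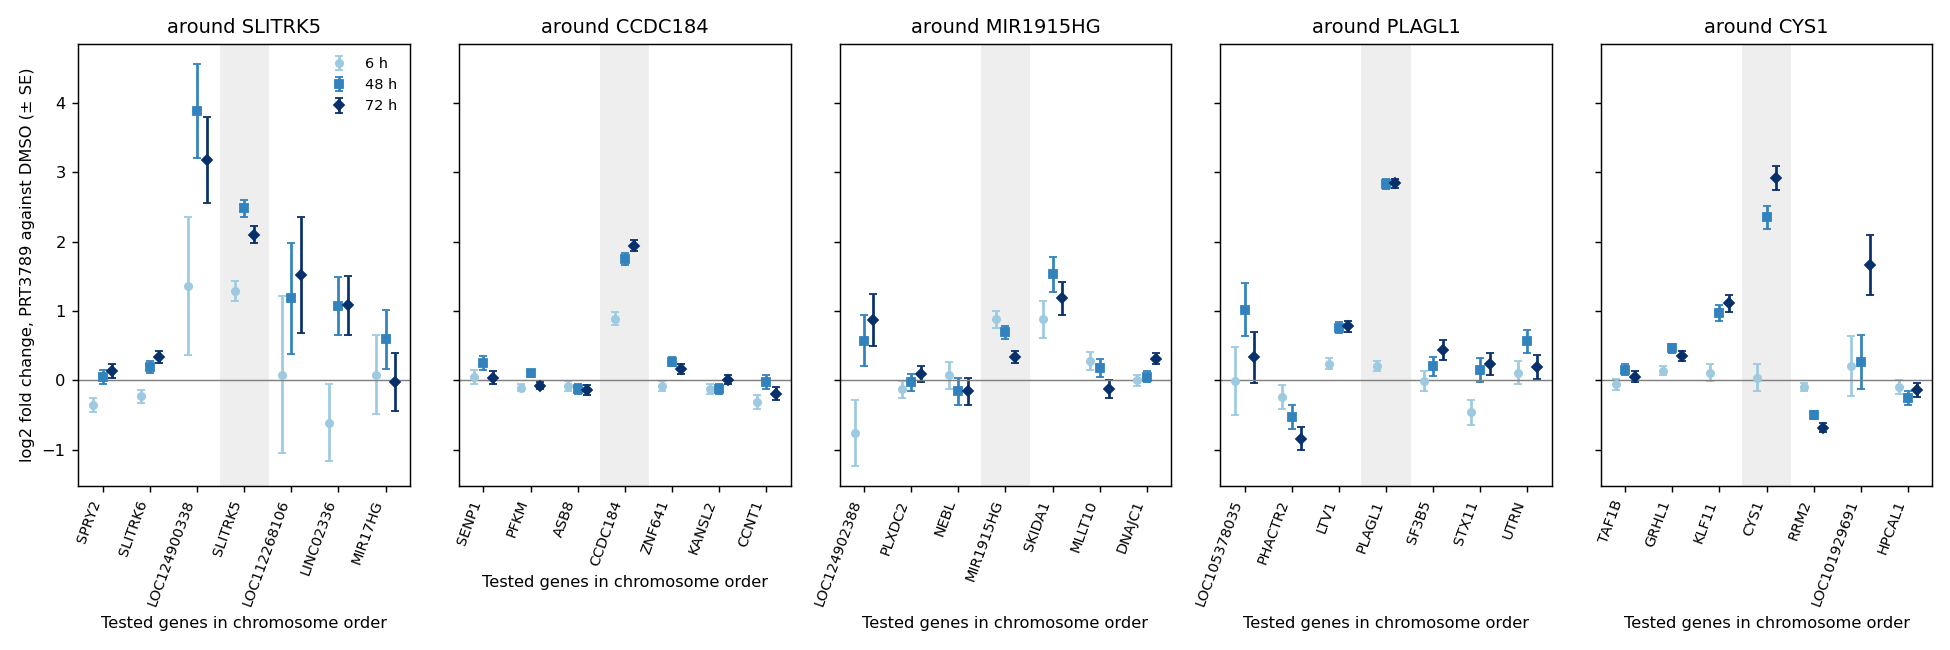
Fitted log2FC with SE (vertical axis) of each member and its 3 nearest tested neighbours on each side, ordered along the chromosome (horizontal axis, not to scale), at 6, 48 and 72 h. The member of each panel is shaded. CCDC184, PLAGL1 and CYS1 stand above all 6 of their neighbours at 48 h, while LOC124900338 has a higher value than SLITRK5 and SKIDA1 than MIR1915HG. The members were chosen for their rises and the neighbours were not, so a member's height above its neighbours restates that choice.

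Genes that share a family or function with a member were taken as 4 lists that do not include the members. Of 42 Slitrk and synaptic leucine-rich repeat adhesion genes, with their ligands and receptors, 24 were tested. Of these, 2 rose (8.33%) and 0 fell at 6 h, where 1.28% of all tested genes were called higher and 3.04% lower. At 48 h 11 rose and 4 fell (45.8% and 16.7%, against 21.2% and 20.9% of all tested genes). At 72 h 13 rose and 4 fell (54.2% and 16.7%, against 21.3% and 22%). At 6 h 1 gene of the list, SLITRK6, had a negative log2FC with an unadjusted p under 0.05, and DESeq2 called 0 lower. The list's median log2FC was 0.13, 0.52 and 0.45 at the 3 times, against -0.01, 0.01 and 0.01 over all tested genes. FLRT2, an adhesion protein with leucine-rich repeats, rose at 6 h with a log2FC of 0.74 ± 0.13 (edgeR adjusted p = 0.00139). BDNF, the neurotrophin that signals through TrkB, rose by 0.32 ± 0.08 at 6 h (edgeR adjusted p = 0.0328) and 0.98 ± 0.08 at 72 h (3.12e-08). With the 6 h libraries fitted alone, neither gene passed at 6 h, leaving 0 calls in the list.

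The axon guidance receptors ROBO1 and ROBO2 rose at 48 h, on the log2 scale by 1.51 ± 0.14 and 1.84 ± 0.16, while SLIT3, a secreted ligand of these receptors, fell by 1.54 on the log2 scale (SE 0.14; edgeR adjusted p = 1.46e-07, 7.8e-08 and 1.12e-07). ROBO1 had a mean of 61.3 CPM in DMSO and 175 CPM in PRT3789 at 48 h, and SLIT3 had 113 and 39.0 CPM. SLIT2, of the same family as SLIT3, went the other way, with a log2FC of 0.92 ± 0.21 at 48 h and 1.27 ± 0.21 at 72 h (edgeR adjusted p = 0.00182 and 7.96e-05). Its mean was 4.28 CPM in DMSO and 8.06 CPM in PRT3789 at 48 h. LRRTM3, a synaptic adhesion protein, rose by 3.15 ± 0.36 at 48 h, from 0.187 to 1.69 CPM. Of the neuronal markers, SYP had a mean of 0.979 CPM in DMSO and 7.50 CPM in PRT3789 at 48 h. The sum of all 9 neuronal markers was 77.4 to 90.4 CPM in DMSO and 67.2 to 72.9 CPM in PRT3789 at that time, but that sum was mostly TUBB3 (81.4 and 57.6 CPM). CHGA went from 0.0834 to 0.647 CPM, SNAP25 from 1.59 to 1.87 CPM and SYN1 from 1.36 to 1.47 CPM, and STMN2 and NEUROD1 were at or near 0 in every group. The part of these markers in the list's changes was not tested.

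Of 37 PLAG family and imprinted genes, with reported targets of PLAGL1, 23 were tested. At 6 h 0 rose and 2 fell (8.7%), where 1.28% of all tested genes were called higher and 3.04% lower. At 48 h 4 rose and 7 fell (17.4% and 30.4%, against 21.2% and 20.9% of all tested genes), and at 72 h 6 rose and 9 fell (26.1% and 39.1%, against 21.3% and 22%). The medians were -0.02, 0.06 and 0.05. At 6 h 1 of the 23, PEG3, had a positive log2FC with an unadjusted p under 0.05, and DESeq2 called 0 higher. CDKN1A, the cell cycle inhibitor p21, fell at every time, by 0.58 at 6 h, 1.51 at 48 h and 1.06 at 72 h on the log2 scale (SE 0.06 each; edgeR adjusted p = 6.81e-06, 3.46e-12 and 2.32e-10). PHLDA2, an imprinted growth regulator of placenta, fell by 0.66 at 6 h (SE 0.17, edgeR adjusted p = 0.0388) and by 1.43 at 48 h (SE 0.19, 7.18e-06). Its 6 h call was lost under 13 alternatives (edgeR adjusted p up to 0.163). These included the replicate block, 6 h fitted apart and the removal of any single 6 h library. MEST, which is expressed from the paternal copy, fell by 0.64 at 48 h (SE 0.07), whereas SNHG14, the imprinted host of small nucleolar RNAs, rose by 1.05 ± 0.11. PLAG1, the family's founding member, had a mean of 2.55 CPM in DMSO and 1.06 CPM in PRT3789 at 48 h and fell with a log2FC of -1.25 ± 0.22 (edgeR adjusted p = 0.000196). PLAGL2 had log2FC values of -0.02, 0.33 and -0.03 and passed at no time.

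Of 81 cilium genes, 80 were tested. Of these, 2 rose and 1 fell at 6 h (2.5% and 1.25%, against 1.28% and 3.04% of all tested genes). At 48 h 36 rose and 9 fell (45.0% and 11.2%, against 21.2% and 20.9%). At 72 h 29 rose and 15 fell (36.2% and 18.8%, against 21.3% and 22%). The medians were 0.05, 0.18 and 0.23. At 48 h CEP290, of the transition zone at the cilium base, rose with a log2FC of 1.00 ± 0.10, NPHP4 of 1.27 ± 0.13, DYNC2H1, the motor of retrograde transport in cilia, of 1.16 ± 0.13, and IFT140, a transport particle subunit, of 1.07 ± 0.12 (edgeR adjusted p = 2.12e-07, 4.7e-07, 8.06e-07 and 2.12e-06). KIF17, a kinesin of cilia, had a mean of 1.10 CPM in DMSO and 4.57 CPM in PRT3789 at 72 h, a log2FC of 2.05 ± 0.26. BBS12, also of the cilium list, rose by 1.22 ± 0.14 on the log2 scale at 72 h. Among the 9 that fell at 48 h were FOXJ1, IFT46, TMEM216 and RPGRIP1L. Their log2FC was -1.09 ± 0.33, -0.78 ± 0.15, -0.61 ± 0.15 and -0.52 ± 0.11 (edgeR adjusted p = 0.0131, 0.000397, 0.00275 and 0.00085). At 6 h RFX2, a factor for ciliary genes, rose by 0.52 ± 0.10, TMEM231 rose by 0.42 ± 0.10 and GPR161 fell by 0.44 (SE 0.12; edgeR adjusted p = 0.0061, 0.0251 and 0.0447). These 6 h calls were 0 with 6 h fitted alone, and they came to 1 to 7 when single libraries were left out, the most without the first DMSO library of 6 h. TEKT1, a marker of multiciliated cells, was at 0 counts in every library. The summed multiciliated markers were 112 to 128 CPM in DMSO and 105 to 110 CPM in PRT3789 at 48 h, mostly CFAP298 (102 and 88.6 CPM). At 48 h FOXJ1 went from 3.24 to 1.52 CPM and MCIDAS from 4.13 to 2.66 CPM. RSPH1 went from 0.844 to 1.69 CPM and DNAH5 from 11.3 to 13.5 CPM, and DNAI1 and CCDC39 were under 1 CPM.

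Of 76 microRNA host transcripts, 22 were tested, and none was called at 6 h by edgeR or DESeq2, with 0 at an unadjusted p under 0.05. Of all tested genes, edgeR called 4.33% at 6 h. At 48 and at 72 h 5 rose (22.7%, near the 21.2% and 21.3% of all tested genes) and 2 fell (9.09%, against 20.9% and 22%). The medians were 0.09 and 0.20. MIR99AHG rose by 1.54 ± 0.27 at 48 h, from a mean of 1.29 to 3.74 CPM. MIR4435-2HG fell by 1.54 on the log2 scale (SE 0.25), from 46.4 to 15.9 CPM. MIR205HG fell and MIR137HG rose at levels of under 1 CPM.

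**Figure D4:**
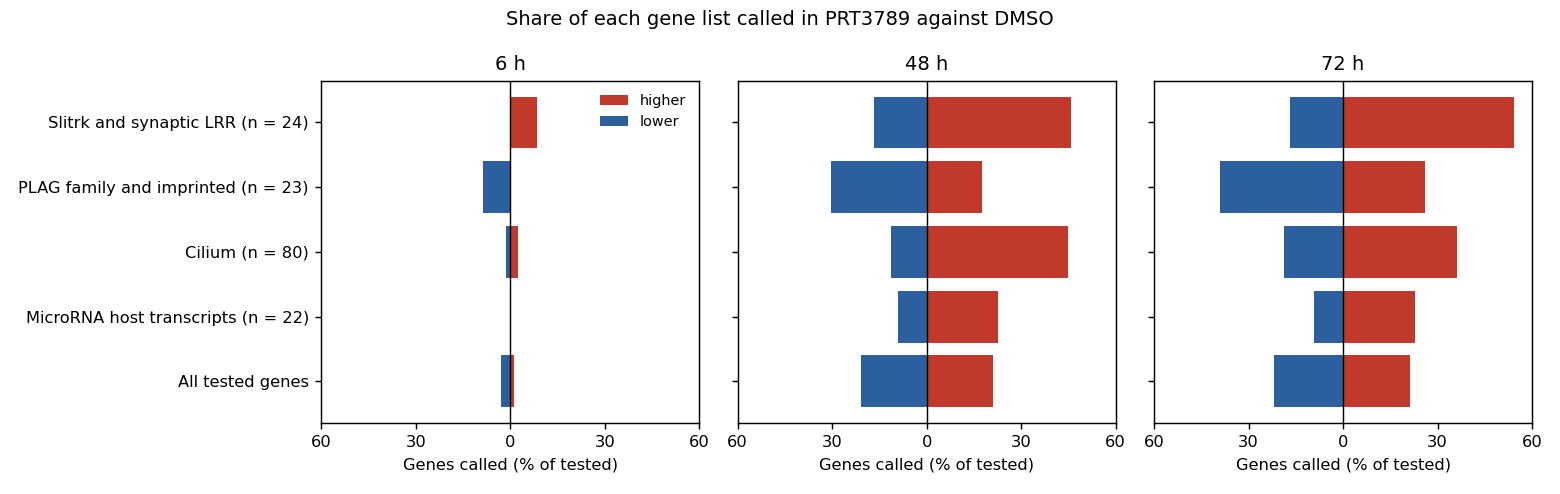
Share of the tested genes of each list that edgeR called higher (red bars to the right, from 0) or lower (blue bars to the left) in PRT3789 against DMSO, in percent, with all tested genes as the last bar of each panel. At 48 h 45.8% of the Slitrk and adhesion list and 45.0% of the cilium list were called higher, against 21.2% of all tested genes.

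The genes most like each member over the 18 libraries were found by Pearson correlation of log2 CPM among 12953 genes with a mean of at least 1 CPM. All points share the treatment and time groups, and the correlation ignores the size of a change. For SLITRK5 they were UBQLN4 (r = 0.9908), GLI1 (0.9816), MDGA2 (0.9809) and HHIP (0.9807). GLI1 and HHIP are target genes of Hedgehog signalling, and their log2FC at 6 h was 1.40 and 1.10. For CCDC184 they were TGIF1 (0.9909), UBQLN4 (0.9865), GLI1 (0.985) and RELB (0.983). UBQLN4 and GLI1 thus appeared for both SLITRK5 and CCDC184, although UBQLN4 had log2FC values of only 0.38, 0.81 and 0.67.

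For PLAGL1 the most alike genes were TAP1 (r = 0.9955), APOL2 (0.9946), IRF1 (0.9944) and C5 (0.9942). TAP1 is a subunit of the peptide transporter of antigen presentation, and IRF1 is an interferon-response transcription factor. Their log2FC was 0.46 and 0.24 at 6 h and 3.26 and 1.70 at 48 h. For CYS1 they were THBS3 (0.9859), LSR (0.9855), IRF1 (0.9844) and TAP1 (0.9814), so IRF1 and TAP1 stood in both late lists. MIR1915HG had lower values, led by C8orf82 (0.9719), B3GALT6 (0.9709), PAOX (0.9692) and ZNF608 (0.9664), whose log2FC at 48 h was 0.22 to 0.27.

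Over the 6 group means the order changed. UBQLN4 (r = 0.999) was again first for SLITRK5, followed by FOXA1, a pioneer transcription factor (0.998), USP53 (0.9974) and DIXDC1 (0.9972). PLS3-AS1 (0.9992), FAM53A (0.9981), GOLGA1 (0.9979) and MARCHF8 (0.9971) were first for CCDC184. ZNF335 (0.9975), NR2F2 (0.995) and PIGN (0.9948) were among the first 4 for MIR1915HG. SLC25A29 (0.9991), PDE4DIP (0.9991), C5 (0.999) and SGCB (0.9984) were first for PLAGL1, and TIPARP (0.9988), NAALADL2 (0.9988), THBS3 (0.9985) and GASK1B-AS1 (0.998) for CYS1. UBQLN4, C5 and THBS3 were thus in the first 4 by both measures for SLITRK5, PLAGL1 and CYS1.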

How the data were processed

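Expected counts per gene symbol were deposited by the authors as whole numbers in 1 table of 18 libraries. Per the labels and the submitters' processing notes, the authors ran nf-core/rnaseq 3.17.0, with Trim Galore, STAR alignment to GRCh38 (annotation release 110) and RSEM, on paired reads of 150 bp. Versions of the single tools are not given in the sources used here. Estimated counts of transcripts that share sequence depend on how RSEM divided their reads.

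Genes were filtered with filterByExpr over the 6 groups, which kept at least 99.95% of the counts of each library, normalised with TMM factors (trimmed mean of M values), and fitted with edgeR 4.0.16 under R 4.3.3. Robust quasi-likelihood F tests, two-sided, came from 1 model of 18 libraries with a mean per group. Calls needed an adjusted p (Benjamini-Hochberg, over all 16291 tested genes) under 0.05. The SE is the log2FC divided by the square root of F. CPM used TMM-scaled totals, and log2 CPM a prior count of 2. DESeq2 1.42.0 was an alternative. The code was tested on simulated data. Depth limits counting error only, since reads carry no molecular identifiers.

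The members and lists were chosen with earlier results of these data known. Named genes are the members, their 3 nearest tested neighbours on each side, for each list and time the 4 called genes of smallest p, and the 4 genes most alike to each member over libraries and over group means, with at least 1 CPM, plus SMARCA2. SYP and other markers, HYMAI, PLAG1, PLAGL2, PEG3, SLIT2, IFT46, TMEM216 and RPGRIP1L were named after their values were seen. They are not in the counts of named genes below. Tests of the members in DMSO over time were planned but are not given, because the DMSO libraries also entered the choice of members. Some genes that the rule takes are not reported here by name. Alternatives were DESeq2 size factors, no filter, DESeq2, a replicate block, each time fitted apart, DMSO libraries alone for time in DMSO, and each library left out.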

Additional observations from a re-analysis of the deposited data

Results flagged for a closer look

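The effect of PRT3789 was compared between 48 and 6 h by the interaction term of the edgeR model for the 55 named neighbours and list genes. The difference passed in 25 of them, with adjusted p from 4.62e-07 to 0.047. Among the 30 neighbours it passed in 7 (23.3%), near the 19.2% of all tested genes. Among the 25 list genes it passed in 18, but these were named for small p at single times, mostly 48 or 72 h, which favours a difference between 48 and 6 h, so that count is no support for the lists. Values in parentheses, for those reported by name, are the log2FC at 48 h minus that at 6 h. Among neighbours the effect was higher at 48 h for SLITRK6 (0.42), PFKM (0.21), ZNF641 (0.34), LTV1 (0.52), GRHL1 (0.32) and KLF11 (0.86), and lower for RRM2 (-0.40). Among adhesion genes it was higher for BDNF (0.38), ROBO1 (1.17), ROBO2 (1.67) and LRRTM3 (2.10) and lower for SLIT3 (-1.65). Among imprinted genes and PLAGL1 targets it was higher for SNHG14 (0.99) and lower for MEST (-0.52), PHLDA2 (-0.78) and CDKN1A (-0.93). The cilium genes NPHP4 (0.84), IFT140 (0.82), KIF17 (1.55), DYNC2H1 (0.80) and CEP290 (0.81) all had a higher effect at 48 h. Among microRNA hosts it was higher for MIR99AHG (1.79) and lower for MIR205HG (-3.82) and MIR4435-2HG (-1.24). Between 48 and 72 h the difference passed in 0 of the 55, with a lowest adjusted p of 0.106 and 12 at an unadjusted p under 0.05, and in 0 of all 16291 tested genes, with 1476 at an unadjusted p under 0.05. The interaction was tested with edgeR only.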

How the results depend on the processing

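The sign of each member's log2FC of PRT3789 against DMSO held under all alternatives run except for CYS1 at 6 h, which ran from -0.12 (without the third DMSO library) to 0.31 (without the second), and was -0.10 without the third PRT3789 library. Counts at 6 h and those between 48 and 72 h in DMSO moved with the processing. Genes called higher at 6 h numbered 209, but 318 with DESeq2, 21 with 6 h fitted apart and 121 to 574 with 1 library left out (574 without the first DMSO library of 6 h). Genes called lower numbered 496, and 126 with 6 h fitted apart. Calls at 6 h with that time fitted apart were 0 adhesion, 1 imprinted and 0 cilium genes, against 2, 2 and 3. Without a filter there was 1 cilium call. With 1 library left out they ran from 1 to 3, 1 to 2 and 1 to 7. Of 7 named list calls at 6 h, 1 (CDKN1A) held under every alternative, as did 31 of 36 calls of named genes at 48 h and 34 of 35 at 72 h. Between 48 and 72 h in DMSO, 63 genes were called higher and 25 lower, against 316 and 225 with DESeq2, 12 and 4 with DMSO libraries alone, and 17 to 344 and 2 to 211 with 1 library left out. The cause of these shifts was not tested. At 6 h, depth left CYS1 with 32 to 74 counts per library.

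Replicate numbers did not pair the libraries: over 9 pairs with the same number and time, the correlation of deviations from the group means ran from -0.454 to 0.771, with 3 over 0.1, and 2 of the 9 DMSO libraries correlated best with their own number. With the replicate block, calls at 6 h were 1 imprinted and 1 cilium gene, and the other counts stayed within 1.5 times.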
